A study of Homo sapiens with 8 samples.

Results

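The genes described here encode the parts of the proteasome that do not cut protein, together with the proteins that build, gate and regulate the particle. They were chosen by name, as the proteasome genes other than the 6 exchangeable catalytic subunits. The rule uses no measured value, but it was set with earlier results of these data known. The list held 43 genes of the 62649 in each deposited table, and all 43 passed the filter on low counts that left 17671 genes for testing. It comprised 7 subunits of the 20S alpha ring, 4 non-catalytic 20S beta subunits, 6 ATPases and 12 non-ATPase subunits of the 19S particle, 3 assembly chaperones of the 19S particle, 5 of the 20S particle, 5 activators and inhibitors and 1 transcription factor, NFE2L1.

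Poly-A RNA of SW480 and SW620 cells was sequenced with or without caffeine, 2 libraries for each of 4 groups and 8 in all. Both are established human colorectal adenocarcinoma lines, SW480 from a primary tumour and SW620 from a lymph node metastasis of the same tumour. Every library, controls included, came from cells carrying the same modification, B8-mCherry (the lines SW480-B8mCherry and SW620B8-mCherry), a fluorescent tag on the immunoproteasome. The treatment text describes caffeine at 30 to 500 µM for 72 h and at 125 µM for 28 days, for SW620B8-mCherry, and the labels do not say which dose and time the sequenced caffeine libraries of either line received. The 4 groups were thus untreated SW480, caffeine-treated SW480, untreated SW620 and caffeine-treated SW620, and the labels call the 2 libraries of a group biological replicates.

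The proteasome is the main protease for ubiquitin-tagged proteins in the cytosol and nucleus. Its 20S core is a stack of rings in which alpha subunits form the gate and beta subunits line the chamber, and the 19S particle at its end recognises, unfolds and feeds in the tagged substrate. Dedicated chaperones assemble both particles, alternative activators can replace the 19S, and NFE2L1 (NRF1) is the transcription factor known to raise proteasome genes together when the proteasome falls short.

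Assigned reads ran from 15760259 to 23269315 per library. Reads of mitochondrial genes made up 1.63% in caffeine replicate 2 of SW480 and 4.38% to 6.16% in the other libraries. Epithelial markers checked the labelled cell type, by the summed level of 10 such genes in CPM (counts scaled to the size of the library). The sum was 4317 to 6314 CPM in SW480 and 9924 to 12593 CPM in SW620, most of it from KRT8 and KRT18. EPCAM was at 157 to 184 CPM in SW480 and 573 to 705 CPM in SW620. VIL1 was at 42.6 to 61.3 CPM and 431 to 468 CPM, and CDX2 at 106 to 142 CPM and 80.0 to 134 CPM, in the same order. In all 8 libraries KRT20 stayed at or below 2.68 CPM and CEACAM5 at or below 1.55 CPM. CDX1 was at 0 in all 8 libraries and CDH1 stayed at or below 0.908 CPM in SW480 against 192 to 396 CPM in SW620. Fibroblast markers summed to 5.60 to 7.41 CPM in SW480 and 37.8 to 48.6 CPM in SW620, of which LUM gave 29.04 to 33.4 CPM, with COL3A1 at 0 in every library. Leukocyte markers summed to 2.43 to 4.14 CPM against 630 to 766 CPM, of which LCP1 alone gave 629 to 766 CPM in SW620, while PTPRC, which defines leukocytes, was at 0 in 7 libraries and at 0.0426 CPM in the other. Endothelial markers summed to 1.35 to 2.22 CPM and 9.57 to 15.6 CPM. The part of these marker differences in the results below was not tested.

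The first comparison asked how the untreated lines differ in these genes. Most of the machinery was lower in SW620: 28 of the 43 genes were lower and 5 were higher (edgeR quasi-likelihood test, Benjamini-Hochberg adjusted p below 0.05), and 10 did not pass. Among all tested genes 65.6% passed in either direction, 32.6% lower and 33% higher, so being called at all was common between these lines, while the split of the proteasome genes was uneven. Their median log2 fold change, SW620 over SW480, was -0.50, against 0.03 over all tested genes, and ran from -1.89 for PSMC2 to 0.64 for NFE2L1. The untreated libraries of the lines did not overlap for 40 of 43 genes, 33 lower and 7 higher, where 83.4% of all tested genes did not overlap, 40.6% lower and 42.8% higher. Summed over the 43 genes, expression was 6881 ± 939 CPM in untreated SW480 and 4435 ± 45.2 CPM in untreated SW620 (SD, n = 2 each). All of these levels are shares of a library, and in bulk RNA fewer cells expressing a gene and less of its RNA per cell cannot be told apart.

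**Figure D1:**
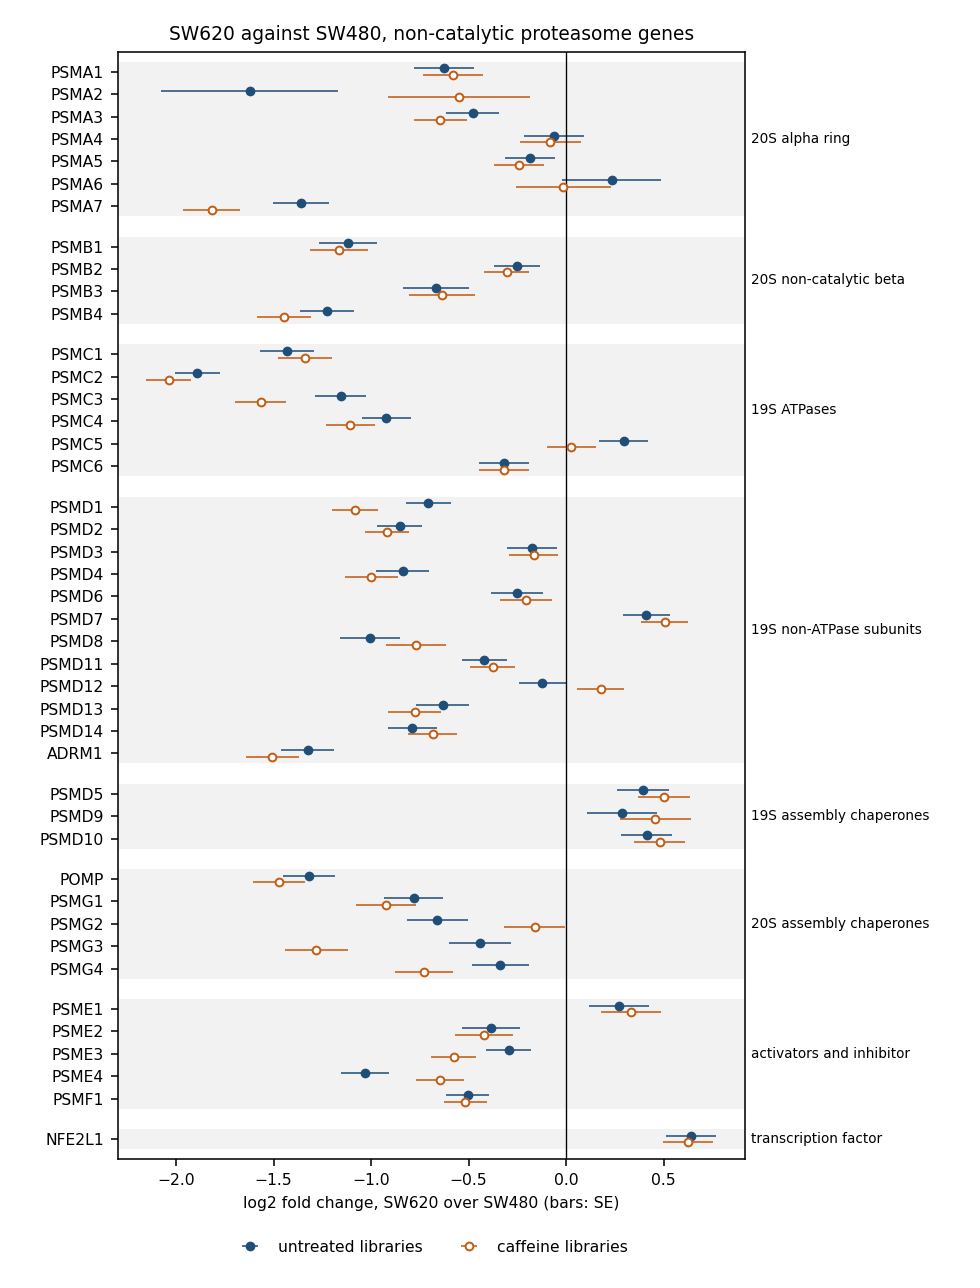
Log2 fold change of SW620 over SW480 for each of the 43 genes (horizontal axis; bars are standard errors), filled points for untreated and open points for caffeine libraries, grouped by role. Most genes lie left of 0 in both sets, PSMC2 farthest at -1.89 untreated, while the 3 listed chaperones of the 19S particle and NFE2L1 lie right of 0.

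The ATPases of the 19S base, which unfold the substrate and thread it into the core, showed the widest span. All 6 were called, 5 lower and 1 higher, where 65.6% of all tested genes were called, 32.6% lower and 33% higher. Their median was -1.04. PSMC2, on chromosome 7 from 103344254 to 103369395 (plus strand, GRCh38, as are all coordinates of genes here), stood at 301 and 331 CPM in the untreated SW480 libraries and 340.4 and 337 CPM in the caffeine libraries. In SW620 it was at 84.1 and 86.0 CPM untreated and 81.7 and 83.0 CPM with caffeine. Every SW620 library was thus below every SW480 library, with a log2 fold change of -1.89 ± 0.11 between untreated lines (SE, adjusted p = 2.36e-10), or 3.71-fold lower.

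PSMC1, another of these ATPases (chromosome 14, 90256495 to 90275429, plus strand), gave 62.0 and 71.3 CPM in untreated SW480, 73.4 and 60.5 CPM with caffeine, 24.2 and 25.2 CPM in untreated SW620 and 26.7 and 26.1 CPM with caffeine. The lines again did not overlap (-1.43 ± 0.14, adjusted p = 1.07e-07). Of its coding bases 629 of 1320 lie opposite exons of NRDE2, and whether reads were counted by strand is not given in the sources used here. PSMC3 (-1.16), PSMC4 (-0.92) and PSMC6 (-0.32, adjusted p = 0.0372) were lower too. The call of PSMC6 was lost in the separate fit of the 2 groups, and without SW480 control replicate 2 or either untreated SW620 library. Its estimate ran from -0.47 to -0.19 when each library was left out. PSMC5 was the exception. It was at 112 and 133 CPM in untreated SW480 and 134 and 119 CPM with caffeine, and at 151 and 149 CPM in untreated SW620 and 135 and 123 CPM with caffeine. The untreated SW620 libraries lay above all SW480 libraries, by 0.30 ± 0.12 (adjusted p = 0.0461), but the caffeine libraries overlapped them. That call was lost under DESeq2 size factors, without the filter on low counts, under DESeq2's Wald test, and without SW480 control replicate 1 or any 1 SW620 library (adjusted p up to 0.304).

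The 12 non-ATPase subunits of the 19S particle include the receptors for ubiquitin chains, the enzyme that removes them and the scaffold of the lid. Their median was -0.67, with 8 lower, PSMD7 higher and 3 not passing, where 32.6% of all tested genes were lower and 33% higher. ADRM1, a ubiquitin receptor (chromosome 20, 62302093 to 62308862, plus strand), was at 117 and 151 CPM in untreated SW480 and 52.8 and 54.3 CPM in untreated SW620, and at 147 and 145 CPM and at 54.9 and 48.1 CPM in the respective caffeine libraries. All SW620 libraries were below all SW480 libraries (-1.33 ± 0.14, adjusted p = 2.41e-07). Of the coding bases of ADRM1, 361 of 1221 lie opposite exons of other genes, among them LAMA5, which was at 204 to 522 CPM. The limit on counting by strand given for PSMC1 applies here too. Another ubiquitin receptor of the list, PSMD4, differed by -0.84, and PSMD14, the deubiquitinase of the lid, by -0.79. PSMD8 (-1.01), PSMD2 (-0.85), PSMD1 (-0.71), PSMD13 (-0.63) and PSMD11 (-0.42) were also lower. PSMD3 (-0.18), PSMD6 (-0.25) and PSMD12 (-0.12) did not pass.

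PSMD7, the non-catalytic partner of PSMD14 in the lid, went the other way. Its level was close to constant within a line, at 49.1 and 49.1 CPM in untreated SW480, 49.1 and 45.3 CPM with caffeine, 65.5 and 65.1 CPM in untreated SW620 and 67.2 and 66.7 CPM with caffeine. The lines did not overlap (0.41 ± 0.12, adjusted p = 0.0069). Of its coding bases 292 of 1028 lie opposite exons of another gene, with the same limit on counting by strand. The call was lost without either untreated SW620 library (adjusted p up to 0.0688).

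In the 20S alpha ring, which forms the gate of the core, 4 of 7 genes were lower and none passed higher. The shares of all tested genes were 32.6% lower and 33% higher. The median of the ring was -0.48. PSMA7 (chromosome 20, 62136735 to 62143440, minus strand) was at 368 and 505 CPM in untreated SW480, 474 and 527 CPM with caffeine, 173 and 167 CPM in untreated SW620 and 151 and 132 CPM with caffeine. Its highest SW620 library lay below its lowest SW480 library (-1.36 ± 0.14, adjusted p = 3.28e-07). PSMA1 (-0.63) and PSMA3 (-0.48) were lower as well, while PSMA4 (-0.06), PSMA5 (-0.19) and PSMA6 (0.23) did not pass. The fourth lower gene, PSMA2, rests on few reads and is described with the overlapping genes below.

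The 4 beta subunits without a catalytic site had a median of -0.89. PSMB4 (-1.23), PSMB1 (-1.12) and PSMB3 (-0.67) were lower, and PSMB2 (-0.25, adjusted p = 0.0673) did not pass. PSMB4 is the partner on which the beta ring closes, and per kilobase of exon it was among the most abundant genes of the list, at 218 ± 47.0 CPM per kb in untreated SW480 and 93.0 ± 2.58 in untreated SW620 (SD, n = 2).

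The assembly factors are given by particle, and the difference between the 2 groups of chaperones was not tested. Of the 5 chaperones of the 20S core, which help the alpha ring form and mature the beta ring, 4 were lower in SW620 and none higher (median -0.66). Among all tested genes 32.6% were lower and 33% higher. POMP, the maturation factor on which new cores and immunoproteasomes depend (chromosome 13, 28659104 to 28678925, plus strand), was at 216 and 279 CPM in untreated SW480 and 255 and 251 CPM with caffeine, and at 96.2 and 103 CPM in untreated SW620 and 95.8 and 86.7 CPM with caffeine. The lines were separate in every library (-1.32 ± 0.13, adjusted p = 1.57e-07). PSMG1 (-0.78), PSMG2 (-0.66) and PSMG3 (-0.44) were lower too, and PSMG4 (-0.34, adjusted p = 0.052) did not pass.

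Of the 3 chaperones in the list that hold ATPase pairs before the 19S base forms, 2 were higher in SW620 and none lower (median 0.39). With 33% of all tested genes higher and 32.6% lower, a count over 3 genes says little. PAAF1, counted below with the proteins that associate with proteasomes, is also a chaperone of the 19S base. It was lower in untreated SW620 than in untreated SW480 (-0.93, edgeR quasi-likelihood test, adjusted p = 9.98e-06). PSMD10, also known as gankyrin (chromosome X, 108084207 to 108091618, minus strand), was at 69.3 and 81.5 CPM in untreated SW480, 84.4 and 71.4 CPM with caffeine, 102 and 99.4 CPM in untreated SW620 and 115 and 103 CPM with caffeine. PSMD5 (chromosome 9, 120815496 to 120842984, minus strand) was at 37.5 and 35.8 CPM, 46.1 and 37.6 CPM, 47.2 and 49.0 CPM, and 58.04 and 60.2 CPM in the same order. In both genes each SW620 library lay above each SW480 library, by 0.41 ± 0.13 for PSMD10 (adjusted p = 0.0111) and 0.39 ± 0.13 for PSMD5 (adjusted p = 0.0161). PSMD9 differed by 0.29 and did not pass (adjusted p = 0.166). The call of PSMD10 was lost without SW480 control replicate 1 and that of PSMD5 without SW480 control replicate 2, and both were lost without either untreated SW620 library (adjusted p up to 0.0925 and 0.116). Summed CPM of the 3 genes was 1.32 times as high in untreated SW620 as in untreated SW480, against 0.550 times for the 5 chaperones of the 20S core.

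Among the regulators that cap the core in place of the 19S particle, PSME4 (PA200, the nuclear activator) differed most, at -1.03 ± 0.12 (adjusted p = 1.4e-06). PSMF1 (-0.50), an inhibitor of the core, PSME3 (-0.29, adjusted p = 0.0324) and PSME2 (-0.39, adjusted p = 0.0309) were also lower. Without the filter on low counts PSME3 was not called. The calls of PSME2 and PSME3 were lost without SW480 control replicate 2 or either untreated SW620 library (adjusted p up to 0.245 and 0.149), and the estimate for PSME2 was -0.21 without that SW480 library and -0.58 without the other untreated one. PSME1, which forms a mixed ring with PSME2 and is interferon-inducible like it, did not pass at 0.27 (adjusted p = 0.128). The genes of this pair lie close together on chromosome 14, and their point estimates had opposite signs.

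NFE2L1 (chromosome 17, 48048329 to 48061487, plus strand) was the gene of the list with the largest positive difference. Its level was 127 and 103 CPM in untreated SW480, 130.5 and 132 CPM with caffeine, 183 and 176 CPM in untreated SW620 and 186 and 219 CPM with caffeine. All SW620 libraries were above all SW480 libraries (0.64 ± 0.13, adjusted p = 0.000352). The factor was therefore higher in the line in which 28 of the other 42 genes were lower. NFE2L1 is controlled largely after translation, and protein was not measured here.

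**Figure D2:**
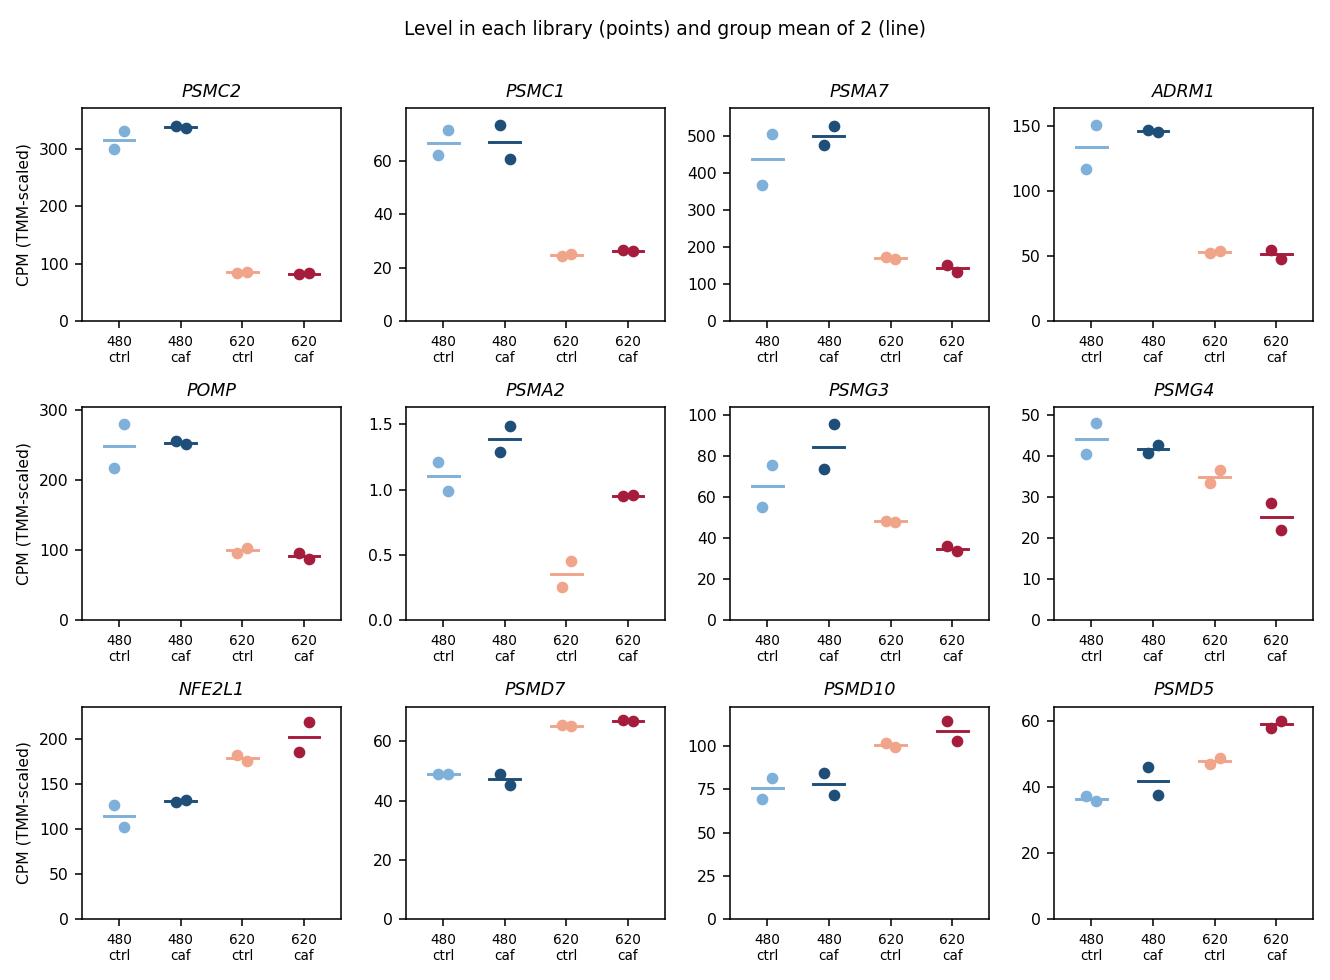
Level in CPM (vertical axis, linear from 0) of 12 genes in each of the 8 libraries (points) with the mean of each group of 2 (line). PSMC2, PSMC1, PSMA7, ADRM1 and POMP are lower in all SW620 libraries, and NFE2L1, PSMD7, PSMD10 and PSMD5 are higher in all of them.

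The caffeine libraries gave the line comparison again with other libraries of the same cells. There 33 genes were called, 28 lower and 5 higher, against 66.3% of all tested genes (33.4% lower and 32.9% higher), and the median was -0.58. Of these, 30 were called in both sets, each in the same direction, 26 lower and 4 higher. Both comparisons rest on 1 fit with a shared estimate of spread. Neither the share called in both sets nor the share held under other settings was computed for all tested genes. PSMA2, PSMC5 and PSMG2 were called only between untreated libraries, and PSMB2, PSMD9 and PSMG4 only between caffeine libraries. PSMD9 then differed by 0.46 (adjusted p = 0.0353), so that all 3 of the listed 19S chaperones were called higher in SW620 between caffeine libraries. This was no rise with caffeine: PSMD9 shifted by -0.30 ± 0.18 in SW480 and -0.13 ± 0.17 in SW620, and neither passed. The difference between those effects did not pass either (0.17 ± 0.25, adjusted p = 0.747). PSMD9 rests on 129 to 221 reads per library and shares coding bases with other genes, as described below. Between untreated lines, 21 of the 33 calls, 20 lower and NFE2L1, held under every other setting tried with those libraries, and 12 were lost under at least 1 of them. Besides the losses given gene by gene, PSMA3 and PSMD11 were lost without SW620 control replicate 1, PSMB3 without SW480 control replicate 2, and PSMG3 without SW480 control replicate 2 or either untreated SW620 library.

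The 2 untreated SW480 libraries were not alike in these genes. Replicate 2 was above replicate 1 in 39 of the 43, with a median gap of 0.30 on the log2 scale, where the median gap over all genes was 0. The same gap was 0.03 between the untreated SW620 libraries, -0.07 between the SW480 caffeine libraries and -0.10 between the SW620 caffeine libraries. Without SW480 control replicate 1 the median line difference was -0.66 with 35 genes called, and without replicate 2 it was -0.41 with 28 called. The number called ran from 22 to 35 when each library was left out in turn, the lowest without SW620 control replicate 1.

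The genes of the list are scattered over many chromosomes, and each was set beside the tested genes within 5 Mb of it, a comparison chosen after the data had been seen. The sign of the gene's line difference matched that of the median of its neighbours in 30 of 43 cases. The neighbours of PSMC2 had a median of -1.18, those of POMP -0.99, and those of PSMC1 -0.86. The neighbours of ADRM1 and PSMA7, which lie close together on chromosome 20, both had a median of -0.82. At the other end the neighbours of PSMD7 had a median of 1.28, above the gene's own 0.41. In 35 of 43 cases the gene lay below its neighbours, with a median gap of -0.44. PSMD2 (-0.85 against 0.39) and PSMD12 (-0.12 against 0.88) lay farthest below, and NFE2L1 farthest above (0.64 against 0.13). These are descriptions across genes, which share windows and are not independent, and copy number was not measured. The same counts were not computed for all tested genes, and 35 of the 43 line differences were themselves negative.

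**Figure D3:**
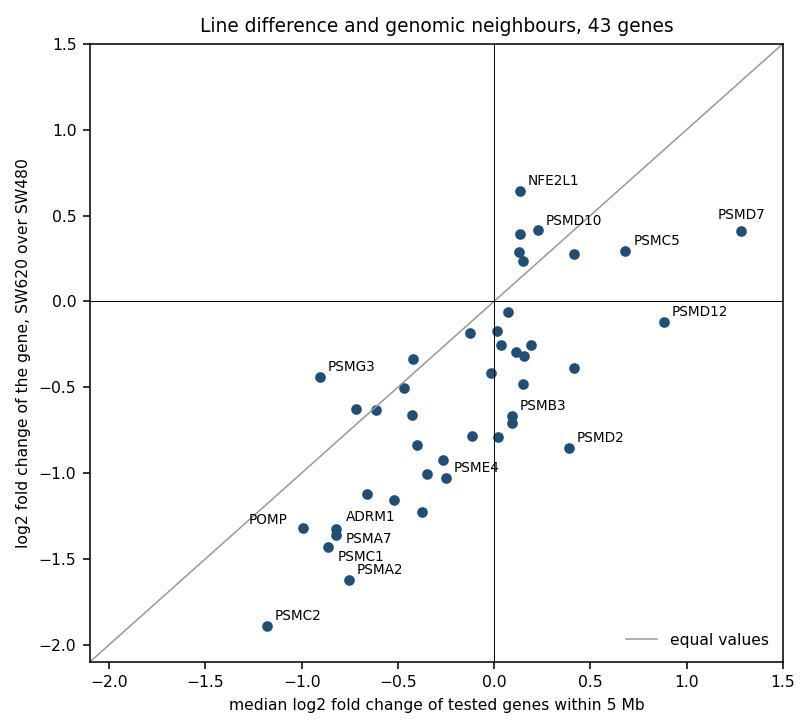
Log2 fold change of each of the 43 genes between untreated lines (vertical axis) against the median of tested genes within 5 Mb (horizontal axis), with the line of equal values. Points lie mostly under that line, 35 of 43 below, with PSMC2 at the lower left.

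Stretches before the transcription starts were read for motifs that are background knowledge for this family. NFE2L1 binds with small MAF proteins to antioxidant response elements, whose core was searched as TGACNNNGC, and NF-Y binds CCAAT. RefSeq promoter entries (GRCh38.p14, 250 bases before to 50 after a start) matched 39 of the 43 genes, all but PSMA7, PSMB1, PSMD4 and PSMG3. With both strands searched, TGACNNNGC occurred in a promoter of 15 of 39 genes (38.5%), against 16.1% of all 27305 genes with an entry and 19.2% of those tested here. CCAAT occurred in 19 of 39 (48.7%), against 39.7% and 42.3%. The motifs share no letters that would make a match to one a match to the other. TGACNNNGC was found in 8 of the 24 genes that were lower in SW620 and had an entry, and in 7 of the 15 others. A match describes letters and is no evidence of binding, and genes with several annotated starts had more stretches in which to match.

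Examples of the core before an annotated RefSeq start are given with 10 bases on either side, the match in capitals, 5′ to 3′ on the gene's strand, first from genes lower in SW620 and then from PSMC5 and PSMD5, which were higher. They show that the same core stands in promoters of genes that differed in opposite directions. Capitals that begin with GC are matches on the opposite strand.
ADRM1 (chr20:62302749-62302777, plus strand): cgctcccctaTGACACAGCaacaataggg
PSME4 (chr2:53971009-53971037, minus strand): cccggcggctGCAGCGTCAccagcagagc
PSMG1 (chr21:39183616-39183644, minus strand): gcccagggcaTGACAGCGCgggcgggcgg
PSMB3 (chr17:38752627-38752655, plus strand): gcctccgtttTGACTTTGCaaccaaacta
PSMG2 (chr18:12658689-12658717, plus strand): cagtttcccgTGACCCCGCggccgctctg
PSMC5 (chr17:63827654-63827682, plus strand): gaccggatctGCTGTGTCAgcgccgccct
PSMD5 (chr9:120843038-120843066, minus strand): tggctacagtTGACACGGCcctaacggag

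The second comparison asked what caffeine changed within each line. In SW480 none of the 43 genes passed (edgeR quasi-likelihood test), against 3.6% of all tested genes. DESeq2 and limma-voom also called none, and 2 genes, PSMD4 and PSMG3, had an unadjusted p below 0.05, where 19.4% of all tested genes did. The median log2 fold change was 0.04 and 35 of 43 genes (81.4%) lay within 0.25 of 0, against 53.6% of all tested genes. That share covers tested genes of every level, and none was computed for genes of similar level. The summed level of the 43 genes was 1.048 times the untreated one. Caffeine and untreated SW480 libraries did not overlap for 7 genes, 6 higher and 1 lower, against 43% of all tested genes, 21.5% in either direction alone. The direction of the small shifts depended on which untreated SW480 library was used: 31 of 43 were negative without replicate 1 and 5 without replicate 2, when PSMC3 and PSMG3 were called higher, and PSMG2 was called lower without SW480 caffeine replicate 1.

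The SW480 genes of smallest adjusted p were PSMG3, described below, and PSMD4, a receptor for ubiquitin chains. PSMD4 was at 246 and 303 CPM untreated and 310.0 and 375 CPM with caffeine, and at 157 and 150.1 CPM and 182 and 161 CPM in SW620. The caffeine libraries lay above the untreated ones in both lines, by 0.32 ± 0.13 in SW480 (adjusted p = 0.197) and 0.16 ± 0.13 in SW620 (adjusted p = 0.485), neither of which passed.

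In SW620 caffeine was accompanied by 2 called genes among the 43, PSMA2 higher and PSMG4 lower, where 14.4% of all tested genes were called, 8.1% higher and 6.25% lower. Another 5 had an unadjusted p below 0.05, 7 in all, against 27.9% of all tested genes. The median was -0.01, and the summed level was 0.987 times the untreated one. Within 0.25 of 0 lay 35 of 43 genes (81.4%, against 47.1% of all tested genes, again of every level). Caffeine and untreated libraries did not overlap for 30 genes, 15 higher and 15 lower, against 62% of all tested genes, 29.7% higher and 32.4% lower. With additive terms for line and caffeine, none of the 43 passed over both lines, against 3.36% of all tested genes. There DESeq2 and limma-voom again called none, and 4 genes had an unadjusted p below 0.05, against 19.4% of all tested genes. PSMA2 (0.77 ± 0.32, adjusted p = 0.192) and PSMD5 (0.24 ± 0.10, adjusted p = 0.211) had the smallest values.

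**Figure D4:**
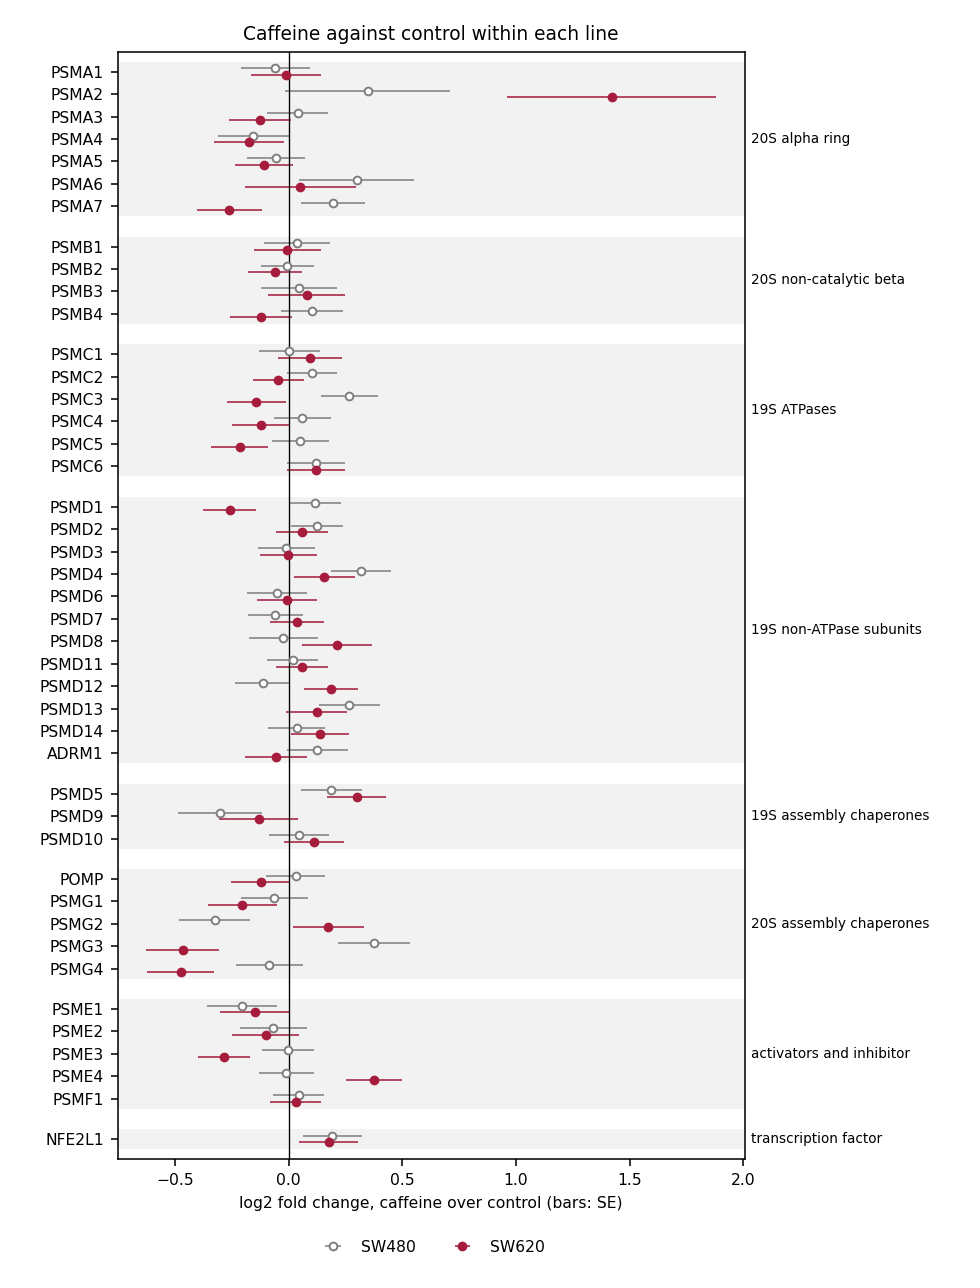
Log2 fold change of caffeine over untreated libraries for each of the 43 genes (horizontal axis; bars are standard errors), open points for SW480 and filled points for SW620. In each line 35 of 43 genes lie within 0.25 of 0, PSMA2 stands apart in SW620, and PSMG3 lies on opposite sides of 0 in the 2 lines.

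Among the chaperones of the 20S core, PSMG3 and PSMG4 are known to work as a pair on the alpha ring. PSMG4 (chromosome 6, 3231403 to 3303373, plus strand) was at 40.4 and 48.1 CPM in untreated SW480, 40.7 and 42.7 CPM with caffeine, 33.4 and 36.6 CPM in untreated SW620 and 28.5 and 21.995 CPM with caffeine. It was lower with caffeine in both SW620 libraries, by -0.48 ± 0.15 (adjusted p = 0.0421), and the SW480 libraries overlapped (-0.08 ± 0.15, adjusted p = 0.801). The difference between those effects did not pass (-0.39 ± 0.21, adjusted p = 0.282). The SW620 call was lost without SW620 control replicate 1 (adjusted p = 0.147), control replicate 2 (0.309) or caffeine replicate 2 (0.391).

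PSMG3 (chromosome 7, 1567330 to 1571005, minus strand) was at 55.1 and 75.4 CPM in untreated SW480 and 73.5 and 95.5 CPM with caffeine, which overlap. In SW620 it was at 48.3 and 47.9 CPM untreated and 36.2 and 33.5 CPM with caffeine, which do not overlap. Neither effect passed alone, at 0.38 ± 0.16 in SW480 (adjusted p = 0.197) and -0.47 ± 0.16 in SW620 (adjusted p = 0.0636). The difference between them did, at -0.84 ± 0.23 (adjusted p = 0.0325), the only one of the 43 to be called, where 6.71% of all tested genes were, 2.47% with a negative difference. It was lost without SW480 control replicate 1 (adjusted p = 0.0787), SW480 caffeine replicate 2 (0.168), SW620 control replicates 1 and 2 (0.122 and 0.112) or SW620 caffeine replicates 1 and 2 (0.0589 and 0.111), and kept without SW480 control replicate 2 or SW480 caffeine replicate 1. SW480 caffeine replicate 2, which held the highest PSMG3 value, was the library with 1.63% mitochondrial reads.

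POMP and NFE2L1, the assembly factor and the transcription factor whose levels are given above, did not pass. POMP shifted by 0.03 ± 0.13 in SW480 (adjusted p = 0.934) and -0.12 ± 0.13 in SW620 (0.586). NFE2L1 shifted by 0.19 ± 0.13 (0.444) and 0.18 ± 0.13 (0.403), and the difference between lines was -0.02 ± 0.18, a sign that turned under DESeq2 size factors (0.01). PSME4 missed the threshold in SW620, where it went from 91.8 and 89.6 CPM to 109 and 126 CPM (0.37 ± 0.12, adjusted p = 0.0513). It was called under DESeq2 size factors, under DESeq2's Wald test, in the separate fit of SW620 and when an SW480 library was left out. It was not called under limma-voom, without the filter on low counts or when an SW620 library was left out. Its SW480 libraries overlapped, at 198 and 172 CPM untreated and 187 and 181 CPM with caffeine.

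The last set of values concerns genes whose annotation affects what was counted. In GENCODE 29, 22 of the 43 genes share exon bases with another gene and 6 do so on the same strand, PSMA1, PSMA2, PSMA6, PSMD9, PSME2 and PSMF1. Where 2 genes share exons, reads can be counted for neither, and 7.36% to 8.37% of reads were left out as ambiguous in the deposited tables. PSMA2 shares 702 of its 723 coding bases (97.1%) with a longer gene model on its strand, PSMA6 681 of 968 (70.4%) and PSMD9 457 of 778 (58.7%). These were the genes with the lowest level per kilobase of exon in untreated SW480, at 0.206 ± 0.0289 CPM per kb for PSMA2, 0.671 ± 0.0281 for PSMA6 and 1.03 ± 0.0649 for PSMD9 (SD, n = 2). PSMA7, a partner in the same ring, was the highest at 250 ± 55.4 CPM per kb. The assembled ring holds its subunits in equal number. PSMA1 did not follow the pattern: it shares 718 of 810 coding bases (88.6%) and still gave 19.5 ± 4.19 CPM per kb. The release and the handling of overlaps used for the deposited counts are not given in the sources used here, and the part of overlap in these levels was not tested.

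**Figure D5:**
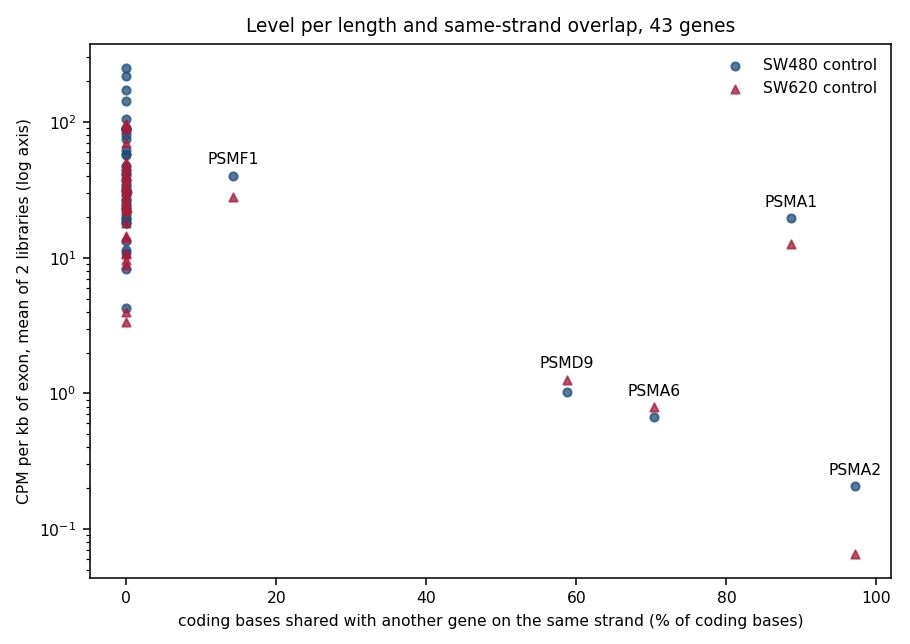
Mean level of each of the 43 genes in CPM per kb of exon (vertical axis, log scale; circles untreated SW480, triangles untreated SW620, 2 libraries each) against the percentage of its coding bases shared with another gene on the same strand. PSMA2, PSMA6 and PSMD9, with 97.1%, 70.4% and 58.7% shared, are the lowest, while PSMA1 with 88.6% is not.

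PSMA2 (chromosome 7, 42916857 to 42932223, minus strand) rests on few reads, 20 and 17 in the untreated SW480 libraries, 20 and 35 with caffeine, 5 and 9 in untreated SW620 and 16 and 19 with caffeine. These are 1.21 and 0.992 CPM, 1.29 and 1.49 CPM, 0.253 and 0.451 CPM, and 0.952 and 0.956 CPM. Untreated SW620 was below the other groups without overlap. The line difference was -1.62 ± 0.46 (adjusted p = 0.0049), lost without SW620 control replicate 1 (adjusted p = 0.0637). The caffeine effect was 1.42 ± 0.46 in SW620 (adjusted p = 0.0489) and 0.35 ± 0.36 in SW480 (adjusted p = 0.639), and the difference between them did not pass (1.07 ± 0.59, adjusted p = 0.298). The SW620 call was lost without the filter on low counts (0.0713), under DESeq2's Wald test (0.144), without SW480 caffeine replicates 1 and 2 (0.0511 and 0.0536), and without any 1 SW620 library (0.112 to 0.344).

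Related genes outside the list give the setting, and their counts are to be read against the same shares of all tested genes, 65.6% called between the lines (32.6% lower and 33% higher) and 14.4% with caffeine in SW620 (8.1% higher and 6.25% lower). Of the 6 exchangeable catalytic subunits, 3 were lower in untreated SW620 (PSMB6 -1.15, PSMB9 -0.58, PSMB5 -0.46) and PSMB10 was higher (0.91). PSMB5 was lost without SW480 control replicate 2 (adjusted p = 0.366) or SW620 control replicate 1 (0.234), and PSMB9 without the latter (0.0542). With caffeine none of the 6 passed in SW480 and PSMB9, an immunoproteasome subunit, was lower in SW620 (-1.17). Of 17 proteins that associate with proteasomes, 5 were lower and 4 higher in untreated SW620. SEM1, a small 19S lid subunit, was at -1.39, and AKIRIN2, which brings proteasomes into the nucleus, at -1.30. PSME3IP1, a partner of PSME3, was at 1.54 and UBQLN2, a shuttle for ubiquitinated proteins, at 1.32. With caffeine 2 of the 17 passed in SW620, both higher, and none in SW480. ZFAND2A, a stress-induced proteasome partner also called AIRAP, was at 0.57 in SW620 (adjusted p = 0.0245) and at 0.57 in SW480 (adjusted p = 0.0561), and passed over both lines (0.57 ± 0.13, adjusted p = 0.0282). AKIRIN2 was at 0.40 in SW620 (adjusted p = 0.0376).

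Of 16 genes that process NFE2L1, pair with it or are its relatives, 4 were higher and 1 was lower with caffeine in SW620, where 14.4% of all tested genes were called, and none passed in SW480. MAFF (1.13) and MAFK (0.99) are small MAF partners of NFE2L1, and MAFG, also a small MAF gene of the list, was not called. NGLY1 (0.64) is the enzyme that trims the sugars of NFE2L1 on the way to activation, and SYVN1 (0.49) belongs to the ligase that turns it over. KEAP1, the adaptor that restrains the related factor NFE2L2, was lower (-0.48). Over both lines NGLY1 alone of the 16 passed (0.49 ± 0.11, adjusted p = 0.0259), a call lost in 4 of the 8 cases in which a library was left out, as that of ZFAND2A was in 5. In untreated SW620, 7 of the 16 were lower and 7 higher, against 65.6% called of all tested genes, from NFE2L3 (-1.80), VCP (-0.90) and KEAP1 (-0.86) to OGT (0.96). Of the caffeine calls in SW620, those of PSMB9, MAFF and MAFK held when each library was left out in turn, and those of AKIRIN2, ZFAND2A, NGLY1, SYVN1 and KEAP1 were lost in 2 to 4 of the 8 cases, each time without an SW620 library (adjusted p up to 0.269).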

How the data were processed

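Per the labels' protocols, total RNA with a RIN of 8 or above was made into directional poly-A libraries and read as 75 bp single ends. Per the submitters' processing notes, the tools named are Trim Galore, STAR 2.7.3a and featureCounts 2.0.5, with the build hg38, in an order and with settings not given in the sources used here. The deposited values are raw counts per Ensembl gene, 1 table per library, from 15760259 to 23269315 assigned reads. Each table also held 12 assignment totals, which were kept out of library sizes and tests.

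Gene symbols came from the supplied name table, and positions, exon lengths and overlaps from GENCODE 29. Counts of all 8 libraries entered 1 robust quasi-likelihood fit in edgeR 4.0.16 (R 4.3.3) with group means, TMM scaling and filterByExpr, and p-values were Benjamini-Hochberg adjusted over the 17671 tested genes with a threshold of 0.05. Contrasts gave caffeine in each line, their difference and SW620 over untreated SW480, and an additive fit gave caffeine over both lines. CPM are scaled by TMM library sizes. Standard errors follow from the fold change and its F statistic. The code was also run on simulated counts with no line difference and changes only in caffeine-treated SW620. Those counts are unlike these data, and no conclusion is drawn from them. With 2 libraries per group the precision is limited, and p-values measure the spread between these libraries.

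The genes and lists were chosen with earlier results of these data known. By rule, all 8 values are given for genes called in a caffeine comparison, for the 5 called genes per direction of largest line difference, for the 2 of smallest adjusted p in a caffeine comparison without a call, and for NFE2L1 and POMP, and up to 4 called genes are named per related list. A further related list is not reported here. PSME4 was added after its values were seen. Alternatives were DESeq2 1.42.0 size factors and its Wald test, limma-voom (limma 3.58.1), no filter, a replicate block, separate fits, leaving out each library, and, chosen after seeing the data, the caffeine libraries for the line comparison. RefSeq promoter sequences (GRCh38.p14) were searched for motifs by exact match.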

Additional observations from a re-analysis of the deposited data

Results flagged for a closer look

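The caffeine effect differed between the lines, by the test of the difference itself, for 1 of the 43 genes and for 4 related genes (log2, SW620 minus SW480, edgeR quasi-likelihood test). Among all tested genes 6.71% were called by that test. The related genes were 1 of 6 catalytic subunits, 3 of the 16 genes around NFE2L1 and none of the 17 associated proteins. PSMG3, a chaperone of the 20S core, differed by -0.84 ± 0.23 (SE, adjusted p = 0.0325), the values of its libraries being given above. PSMB9, an immunoproteasome subunit, differed by -1.49 ± 0.24 (adjusted p = 0.00133), from 11.01 and 12.1 CPM untreated to 13.9 and 14.9 CPM with caffeine in SW480 and from 7.44 and 8.02 CPM to 3.27 and 3.57 CPM in SW620. MAFF differed by 1.47 ± 0.20 (adjusted p = 0.000332), from 26.7 and 24.3 CPM to 21.2 and 19.2 CPM in SW480 and from 17.1 and 16.7 CPM to 40.2 and 33.6 CPM in SW620. MAFK, another small MAF gene, differed by 0.85 ± 0.23 (adjusted p = 0.0327). MAFG, also a small MAF gene, was not called. Its mean level went from 23.9 to 22.9 CPM per kb of exon in SW480 and from 29.9 to 27.2 in SW620. KEAP1 differed by -0.70 ± 0.19 (adjusted p = 0.037). When each library was left out in turn, PSMB9 and MAFF passed in all 8 cases, MAFK in 3, and KEAP1 and PSMG3 in 2 each. No group held the 4 libraries needed to look for a single library far from its group.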

How the results depend on the processing

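With 2 libraries per group, each untreated library carries much of a result. Between the lines the number of the 43 genes called was within 1.5 times of 33 under every alternative, from 22 to 35 (genes called 9789 to 12043) when each library was left out. The caffeine counts moved more. Without the filter on low counts 1073 genes were called in SW480 and 1266 over both lines, and the separate fit of SW620 called 4617 genes and 8 of the 43. With each library left out, genes called ran from 56 to 1421 in SW480, 801 to 3245 in SW620, 451 to 2188 for the difference and 140 to 780 over both lines, the lowest without SW480 caffeine replicate 2 for SW480 and without SW620 control replicate 2 for SW620 and the difference. Of the 43, 0 to 2, 0 to 4, 0 to 3 and 0 were called in the same order. With the replicate number as a block, 0 of the 43 were called in SW620 (PSMG4 0.0579, PSMA2 0.0659) and 317 genes over both lines, while 31 of the 43 were called between the lines, PSMC5 and PSMC6 being lost. Same-numbered libraries did not deviate together (correlations 0.03 in SW480 and 0.01 in SW620), so the pairing is by number only. Signs turned only for values near 0. The SW480 effect of POMP was -0.141 without that line's control replicate 1 and 0.210 without its control replicate 2, and that of PSMG4 was -0.204 and 0.0311 in the same order. Over both lines POMP gave -0.127 and 0.0171, and the difference of its effects gave 0.0228 and -0.322. The NFE2L1 difference was 0.0108 under DESeq2 size factors and under the Wald test, and with a library left out it ran from -0.172 to 0.158, the ends coming from the untreated SW480 libraries. Of single-gene values under alternatives other than leaving out a library, 503 kept direction and side of the threshold. The threshold was lost for 19 and gained for 2, and 2 changed direction. With a library left out, more values lost the threshold and more changed direction than under these alternatives. The causes were not tested.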
